A study of Mus musculus with 16 samples.

Results

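The 10 genes described here encode Siglecs, which are sialic acid binding lectins of the immunoglobulin superfamily, and other receptors of myeloid cells that are known mainly for restraining activation. They are Siglec1, Siglece, Cd33, Cd22, Sirpa, Pirb, Lair1, Cd200r1, Lilrb4a and Pilra, taken by symbol from the 35275 genes of the deposited count table. Of the 10, 9 carried that symbol, and Lilrb4a was taken under its older symbol Lilrb4. All 10 were among the 13080 genes with enough counts to be tested. Expression was measured by RNA sequencing of C57BL/6 macrophages that had been differentiated from tibial marrow with colony-stimulating factor 1.

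The libraries fell into 4 groups of 4. KO macrophages with TGF-β1 and KO macrophages left untreated came from mice that carried floxed Smad7 alleles and a tamoxifen-inducible Cre-ER transgene under the CAGG promoter. The fl/fl macrophages with TGF-β1 and the fl/fl macrophages left untreated came from littermates with the floxed alleles, for which the labels name no Cre. Both genotypes received tamoxifen at 20 mg/kg on 5 days at 1 month of age, and marrow was taken 2 weeks later. The cells were starved of serum for about 12 hours, and the treated groups then had TGF-β1 at 10 ng/ml during 4 hours. The CAGG promoter is active broadly, so deletion of Smad7 was aimed at the whole mouse and not at macrophages alone. Smad7 is an inhibitory Smad that limits signalling from the TGF-β receptor. The labels do not say whether the libraries of a group came from separate animals, so the p-values measure the spread between these libraries, which may be technical.

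Most inhibitory receptors of myeloid cells carry a short cytoplasmic motif, the immunoreceptor tyrosine-based inhibitory motif (ITIM). Src-family kinases phosphorylate it, and it then recruits phosphatases such as SHP-1 (Ptpn6) and the inositol phosphatase SHIP1 (Inpp5d), which dampen signals from activating receptors. Not every gene named here works that way: Siglec1 (sialoadhesin) has no ITIM and acts in adhesion and uptake, mouse CD33 lacks the classical ITIM of human CD33, and CD200R1 signals through Dok2 and the Ras GTPase-activating protein Rasa1.

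Totals per library ran from 16865591 to 23741079 counts. Smad7, the targeted gene, had 10.3 to 19.7 CPM (counts scaled to library size by TMM) in KO libraries with TGF-β1, against 37.3 to 58.3 CPM in fl/fl libraries with TGF-β1. In KO untreated libraries it had 5.87, 1.28, 1.64 and 2.00 CPM, against 3.89 to 6.03 CPM in fl/fl untreated libraries. The library labelled KO untreated replicate 1 stood apart: its Pmepa1, a gene induced by TGF-β, was at 319.9 CPM, against 1.70 to 2.73 CPM in the other 3 KO untreated libraries and 292 to 343 CPM in the KO libraries with TGF-β1. Its Skil, another gene induced by TGF-β, was at 655 CPM, against 110.4 to 157 CPM in the other 3. Its label was kept, and the tests of the 10 genes and the counts of genes called are given with and without it. Summed macrophage markers (8 genes, among them Csf1r, Cd68 and Emr1, the older symbol of Adgre1) were at 17864 to 20236 CPM in KO libraries with TGF-β1, against 17333 to 25176 CPM in KO untreated libraries. They were at 17005 to 21017 CPM in fl/fl libraries with TGF-β1, against 21140 to 23257 CPM in fl/fl untreated libraries, and these 2 ranges did not overlap. Over all libraries Lyz2 had 6531 to 16026.5 CPM and Csf1r 3964 to 6733 CPM, so the macrophage sum mainly follows these genes. B cell markers bear on Cd22 and are given beside it. In any library the T and NK cell list summed to at most 0.764 CPM, the erythroid list to 1.20 and the mast cell and basophil list to 1.62 CPM. The stromal list summed to at most 8.04, the dendritic cell list to 8.34 and the neutrophil list to 15.96 CPM. In the neutrophil list Ngp was at 1.62 to 4.57 CPM and Ltf at 0.990 to 4.95 CPM. S100a9 reached 4.08 CPM and S100a8 1.94 CPM, while Ly6g and Retnlg had no count. The osteoclast list summed to 81.3 to 152 CPM, most of it Nfatc1 (70.7 to 139 CPM). Acp5 was at 3.10 to 6.53 CPM, Ctsk at 2.00 to 6.53 CPM and Dcstamp at up to 9.67 CPM, while Oscar and Calcr had a median of 0.

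Levels were compared between genes with FPKM, which divides by gene length. With TGF-β1, Sirpa, the receptor for the CD47 signal that restrains phagocytosis, had the highest level in fl/fl macrophages at 681 ± 43.8 FPKM (SD, n = 4 here and for each group mean below). It was followed by Lilrb4a, an ITIM receptor also called gp49B, at 186 ± 51.3 FPKM and by Pirb, an ITIM receptor for MHC class I, at 76.1 ± 4.41 FPKM. Siglec1 was next at 43.6 ± 6.63 FPKM. Lair1, a receptor for collagen, was at 18.7 ± 3.85 FPKM and Cd200r1, the receptor for CD200, at 14.7 ± 0.384 FPKM, and the ranges of these 2 genes overlapped. Cd33 was at 9.74 ± 1.48 FPKM. The lowest 3 were Siglece, the ITIM-bearing Siglec of mouse neutrophils and macrophages, at 1.27 ± 0.191 FPKM, Cd22, best known as an inhibitory Siglec of B cells, at 0.657 ± 0.360 FPKM, and Pilra, a receptor for CD99 and PIANP, at 0.527 ± 0.315 FPKM. Cd22 overlapped both of its neighbours in that order, and the other neighbours did not overlap.

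Untreated, the first 3 places in fl/fl macrophages were the same: Sirpa was at 765 ± 14.5 FPKM, Lilrb4a at 382 ± 75.8 FPKM and Pirb at 148 ± 19.9 FPKM. Cd200r1 stood next in this order at 41.9 ± 2.19 FPKM, with a range that overlapped that of Siglec1 at 35.6 ± 3.95 FPKM, and Lair1 followed at 23.7 ± 0.770 FPKM. Cd33 was at 6.98 ± 2.12 FPKM. Siglece at 1.22 ± 0.334 FPKM and Pilra at 1.11 ± 0.526 FPKM overlapped, and Cd22 was lowest at 0.267 ± 0.0781 FPKM. All other neighbours in this order had ranges that did not overlap.

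**Figure D1:**
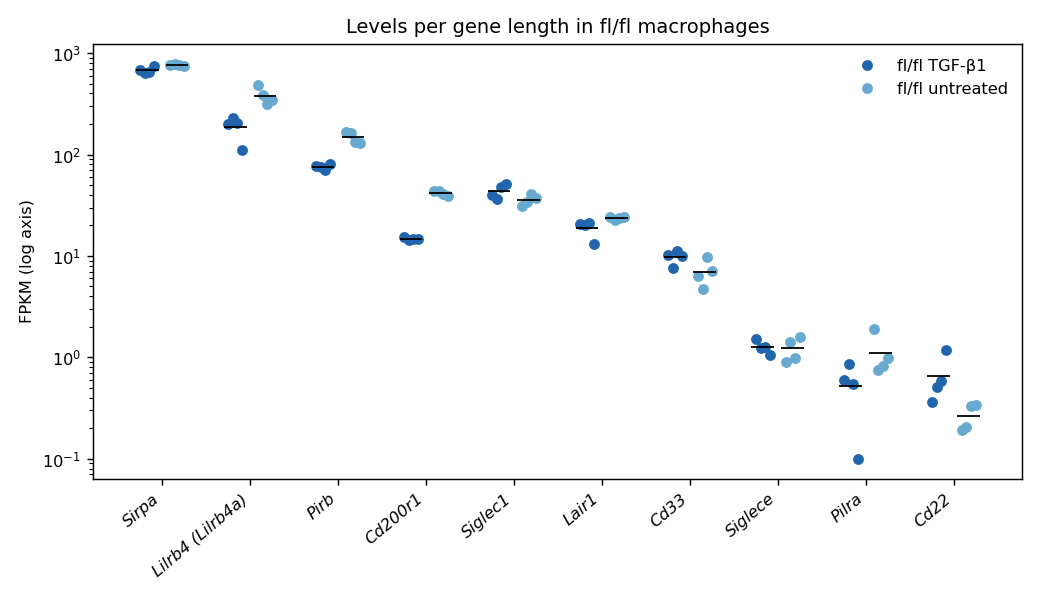
FPKM (log axis) of the 10 genes in fl/fl macrophages with TGF-β1 (dark points) and untreated (light points), with 1 point per library and a bar at each group mean. Sirpa averaged 681 FPKM with TGF-β1 and 765 FPKM untreated, while Cd22 averaged 0.657 FPKM with TGF-β1 and 0.267 FPKM untreated.

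After 4 hours of TGF-β1, 2 of the 10 genes fell in KO macrophages, and 3 fell and 1 rose in fl/fl macrophages. Cd200r1 and Pirb were lower with TGF-β1 in both genotypes, by factors of 1.84 to 2.15 in KO macrophages and 1.88 to 2.75 in fl/fl macrophages. Lilrb4a fell and Cd22 rose, the second 2.51-fold from a very low level, in fl/fl macrophages, and in KO macrophages neither passed the threshold, an adjusted p under 0.05 in edgeR's quasi-likelihood test over all genes tested. Of all 13080 genes, 2.97% were called lower and 2.19% higher in KO macrophages, and 7.61% lower and 7.87% higher in fl/fl macrophages. The median log2 fold change of the 10 genes was -0.08 in KO macrophages, where that of all genes was -0.03, and -0.20 in fl/fl macrophages, where that of all genes was -0.01. The summed macrophage markers were also lower with TGF-β1 in every fl/fl library than in any untreated one, and the part of this in the falls of Cd200r1, Pirb and Lilrb4a was not tested. In bulk samples, fewer cells of a type and less RNA per cell cannot be told apart.

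Without the library labelled KO untreated replicate 1, the same test called Cd200r1, Pirb and Lilrb4a lower and Cd33 higher in KO macrophages, when 6.7% of all genes were called lower and 8.17% higher. In fl/fl macrophages it called the same 4 genes as with all libraries, when 9.02% of all genes were called lower and 8.71% higher. The fl/fl values were -1.46 ± 0.09 for Cd200r1 (edgeR adjusted p = 1.01e-09) and -0.91 ± 0.13 for Pirb (6.38e-05). They were -0.98 ± 0.18 for Lilrb4a (0.000621) and 1.32 ± 0.35 for Cd22 (0.0111). All groups share 1 estimate of the spread, so the library labelled KO untreated replicate 1 also enters the fl/fl errors. The members' medians were then -0.19 in KO macrophages and -0.20 in fl/fl macrophages, and those of all genes -0.01 in KO and -0.02 in fl/fl macrophages. In an edgeR fit of the KO libraries alone, with all 8 of them, 0 of 12495 genes were called and so no member was (adjusted p = 0.180 for Cd200r1 and 0.192 for Pirb), while 1880 genes had an unadjusted p under 0.05. The other fits cited below for single members, all without the library labelled replicate 1, called 13% (block over all groups), 14.5% (KO libraries alone), 18.1% (both) and 17.5% (DESeq2) of all genes in KO macrophages. The block over all groups called 16.1% and DESeq2 20.6% in fl/fl macrophages.

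**Figure D2:**
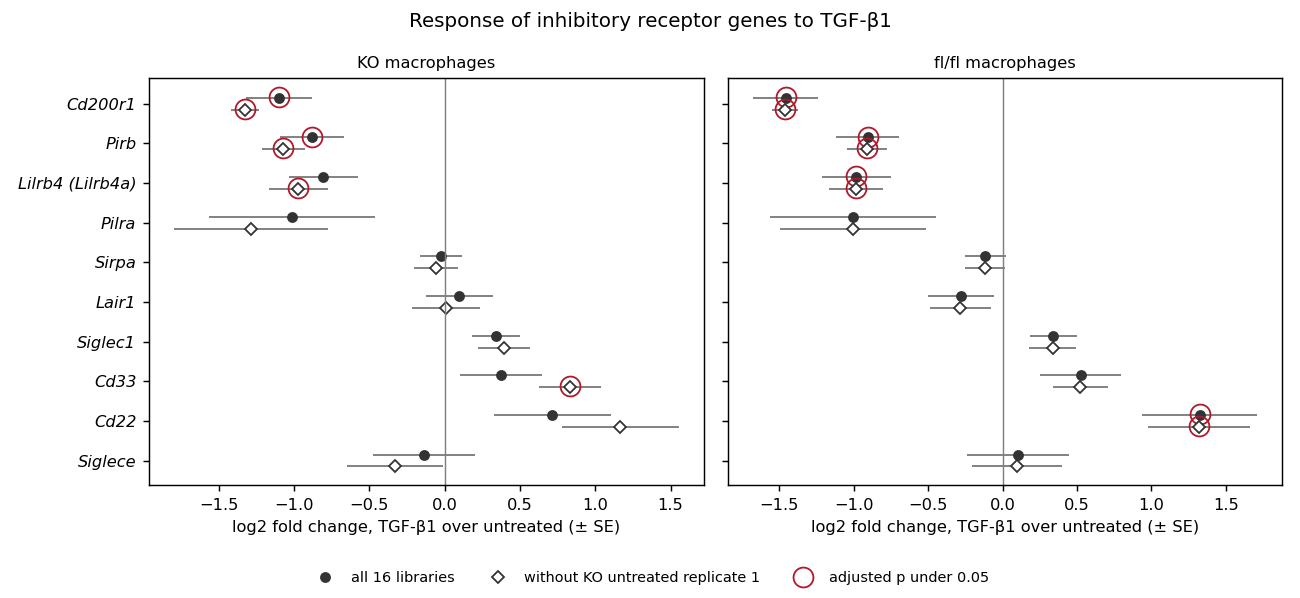
Log2 fold change of each gene with TGF-β1 over untreated (± SE), in KO macrophages and in fl/fl macrophages. Filled circles use all 16 libraries, open diamonds leave out the library labelled KO untreated replicate 1, and red rings mark an adjusted p under 0.05. Cd200r1 lies at -1.10 in KO and -1.46 in fl/fl macrophages with all libraries.

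Cd200r1 (ENSMUSG00000022667, chr16:44765736-44794978 in mm10, plus strand) encodes the receptor through which CD200 on neighbouring cells restrains macrophages. It had 28.9, 26.7, 27.3 and 28.7 CPM in the 4 KO libraries with TGF-β1, against 25.7, 64.7, 78.7 and 70.6 CPM in the 4 KO untreated libraries. The low untreated value is that of the library labelled replicate 1, which lies below all TGF-β1 libraries for this gene. The fl/fl libraries had 30.5, 28.9, 28.1 and 27.9 CPM with TGF-β1, against 82.5, 83.5, 77.6 and 74.0 CPM untreated. These 2 sets were far apart, and within each the libraries lay close together. The log2 fold change was -1.10 ± 0.22 (SE) in KO macrophages with all libraries (edgeR adjusted p = 0.0133), and -1.32 ± 0.09 (edgeR adjusted p = 9.25e-09) without the library labelled replicate 1. The call with all libraries was lost without KO untreated replicate 3 (adjusted p = 0.0573), KO untreated replicate 4 (0.0593) or KO TGF-β1 replicate 3 (0.0546). For fl/fl macrophages it was -1.46 ± 0.22 (edgeR adjusted p = 0.000722), a 2.75-fold lower level with TGF-β1.

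Pirb (ENSMUSG00000058818) encodes the inhibitory member of the paired immunoglobulin-like receptors, which bind MHC class I. It had 193, 262, 269 and 303 CPM in KO libraries with TGF-β1, against 243, 463, 582 and 604 CPM in KO untreated libraries. The only untreated library within the TGF-β1 range was the one labelled replicate 1. Among fl/fl libraries it had 312, 307, 276 and 314 CPM with TGF-β1, against 644, 626, 501 and 497 CPM untreated, and every library with TGF-β1 was below every untreated one. For KO macrophages the log2 fold change was -0.88 ± 0.21 (edgeR adjusted p = 0.0269) with all libraries and -1.07 ± 0.14 (edgeR adjusted p = 2.31e-05) without the library labelled replicate 1. The call with all libraries was lost when any one of the other 7 KO libraries was left out (adjusted p 0.0598 to 0.114). Its fl/fl value was -0.91 ± 0.21 (edgeR adjusted p = 0.00719), a 1.88-fold lower level with TGF-β1.

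The Pirb gene lies at chr7:3711409-3720391 in mm10 on the minus strand. Promoter windows, from 250 bases before to 50 bases after a gene's start, were found in RefSeq on GRCm38.p6 for 6 of the 10 genes: Siglece, Cd33, Cd22, Pirb, Lair1 and Pilra. Those of 3 genes are printed, since Pirb fell, Cd22 rose in fl/fl macrophages and Cd33 was called higher in KO macrophages without the library labelled untreated replicate 1. All are on the minus strand and written 5′ to 3′, and capitals mark CAGAC, the box that Smad proteins bind, or GAGGAA, the core of sites for the myeloid factor PU.1, on either strand. The windows are chr7:3720333-3720632 for Pirb, chr7:43533122-43533421 for Cd33 and chr7:30878979-30879278 for Cd22.
Pirb: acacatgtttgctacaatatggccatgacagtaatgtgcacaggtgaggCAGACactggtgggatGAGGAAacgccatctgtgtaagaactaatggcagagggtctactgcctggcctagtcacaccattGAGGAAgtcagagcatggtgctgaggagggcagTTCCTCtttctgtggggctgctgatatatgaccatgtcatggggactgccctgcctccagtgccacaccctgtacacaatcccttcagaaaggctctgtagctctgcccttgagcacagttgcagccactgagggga
Cd33: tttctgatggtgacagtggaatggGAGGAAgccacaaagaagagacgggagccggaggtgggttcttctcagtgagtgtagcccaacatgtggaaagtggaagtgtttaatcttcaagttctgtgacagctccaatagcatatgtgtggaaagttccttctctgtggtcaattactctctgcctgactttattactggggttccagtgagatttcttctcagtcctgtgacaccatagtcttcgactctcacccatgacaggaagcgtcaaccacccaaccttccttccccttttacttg
Cd22: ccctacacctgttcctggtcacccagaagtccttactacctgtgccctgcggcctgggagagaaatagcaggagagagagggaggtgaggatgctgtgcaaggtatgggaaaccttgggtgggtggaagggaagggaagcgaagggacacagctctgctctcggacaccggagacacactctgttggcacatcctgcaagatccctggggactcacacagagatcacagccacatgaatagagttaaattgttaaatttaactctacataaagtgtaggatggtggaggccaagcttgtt
The Pirb window held CAGAC once, at -201 from the start, and GAGGAA 3 times, at -185, -120 and -87. The Cd33 window held GAGGAA once, at -226, and no CAGAC, and the Cd22 window held neither. Of 32851 RefSeq promoter windows of the same 300 bases, 49.6% held CAGAC and 28.3% held GAGGAA. Among the windows not printed, Siglece held CAGAC 2 times and GAGGAA 3 times, Lair1 held each once, and Pilra held GAGGAA once. The AP-1 letters TGANTCA, found in 7.81% of all windows, were in none of the 6 windows. The interferon element ISRE was also searched on both strands. It was found in 3.44% of all windows and, of the 6, in that of Pilra only. These are matches of letters, and none of the hits printed here overlapped another.

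Lilrb4a (ENSMUSG00000062593) encodes the ITIM receptor gp49B. It had 277, 262, 302 and 302 CPM in KO libraries with TGF-β1, against 286, 574, 570.1 and 572 CPM in KO untreated libraries. The library labelled replicate 1 lay in the TGF-β1 range, and the other 3 untreated libraries lay well above it. Libraries of fl/fl macrophages had 305, 347, 302 and 162 CPM with TGF-β1, against 707, 555, 448 and 494 CPM untreated. The fl/fl groups did not overlap, although TGF-β1 replicate 4 was well below its 3 partners. The log2 fold change in KO macrophages was -0.81 ± 0.23 (edgeR adjusted p = 0.0510) with all libraries and -0.97 ± 0.19 (edgeR adjusted p = 0.00138) without replicate 1. Its fl/fl value was -0.98 ± 0.23 (edgeR adjusted p = 0.00755). The deposited span of Lilrb4a, chr10:51480640-51496613 on the plus strand, shares 5677 bases with Gp49a on the same strand, so reads of the 2 genes may be split between them and the counts of both are uncertain.

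Pirb and Lilrb4a each have close relatives that lack an inhibitory tail, and these share sequence with them. Gp49a, a relative of gp49B with no ITIM, averaged 155 ± 7.60 CPM in KO macrophages with TGF-β1, against 365 ± 125 CPM untreated (log2 fold change -1.23 ± 0.26, edgeR adjusted p = 0.0181). In fl/fl macrophages it averaged 145 ± 45.1 CPM with TGF-β1, against 384 ± 67.5 CPM untreated (log2 fold change -1.41 ± 0.26, edgeR adjusted p = 0.00200). Lilra6, a relative of Pirb of the activating type, fell with TGF-β1 by 1.34 ± 0.27 on the log2 scale in KO macrophages (edgeR adjusted p = 0.0130). It was at 1.20 to 2.14 CPM in fl/fl libraries with TGF-β1, against 5.93 to 7.54 CPM untreated, and fell there by 1.83 ± 0.27 (edgeR adjusted p = 0.000722). Gp49a and Pira2, an activating paired receptor, were chosen here after their values were seen. Pira2 averaged 10.5 ± 3.32 CPM in KO macrophages with TGF-β1 and 18.2 ± 10.5 CPM untreated (edgeR adjusted p = 0.273), and 8.79 ± 2.24 CPM in fl/fl macrophages with TGF-β1 and 15.8 ± 3.69 CPM untreated (edgeR adjusted p = 0.152). Without the library labelled KO untreated replicate 1 its edgeR adjusted p was 0.0145 in KO and 0.0365 in fl/fl macrophages. Reads shared between Pirb, Pira2 and Lilra6 cannot be assigned from the deposited counts, and how reads with several matches were counted is not given in the sources used here.

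**Figure D3:**
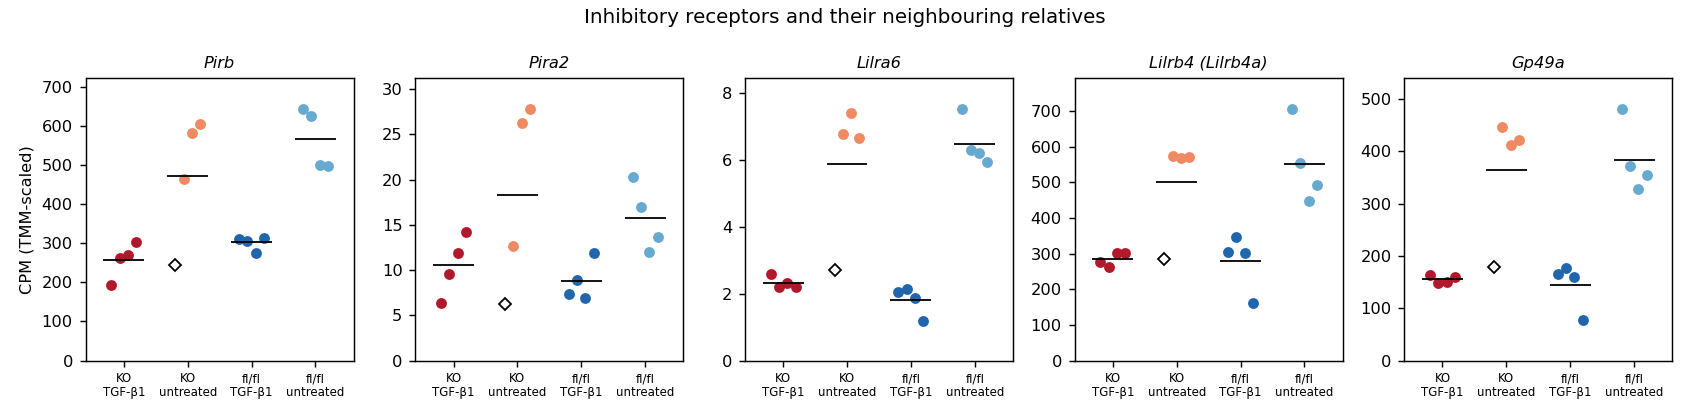
CPM per library of Pirb, Pira2, Lilra6, Lilrb4a (deposited as Lilrb4) and Gp49a in the 4 groups, with bars at the group means. The open diamond is the library labelled KO untreated replicate 1, at 243 CPM for Pirb and 286 CPM for Lilrb4a, against 463 to 604 CPM and 570.1 to 574 CPM in the other KO untreated libraries.

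Cd22 (ENSMUSG00000030577) encodes the Siglec that limits B cell receptor signalling. It had 1.72, 1.77, 2.16 and 1.88 CPM in KO libraries with TGF-β1, against 2.01, 0.976, 0.797 and 0.788 CPM in KO untreated libraries. The library labelled KO untreated replicate 1 was the only untreated one within the TGF-β1 range. In fl/fl macrophages it had 1.52, 2.14, 2.36 and 4.74 CPM with TGF-β1, from 25 to 91 counts per library, against 0.778, 0.815, 1.30 and 1.35 CPM untreated, from 13 to 32 counts. The fl/fl groups did not overlap, and replicate 4 was the highest of the TGF-β1 libraries. For KO macrophages the log2 fold change was 0.72 ± 0.39 (edgeR adjusted p = 0.370) with all libraries and 1.16 ± 0.39 (edgeR adjusted p = 0.0523) without replicate 1. With that library left out, Cd22 was called in KO macrophages with the replicate block over all groups, at 1.29 ± 0.37 (edgeR adjusted p = 0.0336). That block joined the genotypes by number, for which no pairing was seen. Cd22 was also called in the fit of the KO libraries alone (edgeR adjusted p = 0.0405) and by DESeq2 (adjusted p = 0.0289). It was not called when the block was joined with the fit of the KO libraries alone (edgeR adjusted p = 0.0689). Its fl/fl value was 1.33 ± 0.39 (edgeR adjusted p = 0.0258). Without fl/fl TGF-β1 replicate 4 the fl/fl value was 0.92 with an edgeR adjusted p of 0.105, and the call was also lost without fl/fl untreated replicate 1 (0.0794) or replicate 2 (0.0799).

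Cd22 was higher with TGF-β1 in fl/fl macrophages, while the summed markers of B cells were lower. The 8 genes of that list summed to 73.2 to 110.4 CPM in KO libraries with TGF-β1, against 115 to 193 CPM in KO untreated libraries. They summed to 90.3 to 118 CPM in fl/fl libraries with TGF-β1, against 163 to 215 CPM in fl/fl untreated libraries. Nearly all of this was Ighm (70.4 to 212 CPM), so the sum mainly follows that gene. Cd79b was at 1.08 to 3.45 CPM, which lies within the range of Cd22 itself. Cd79a reached 0.625 CPM and Ms4a1 0.621 CPM, while Pax5 and Blk had no count in any library. An antisense gene, RP24-63G4.12, overlaps Cd22 (chr7:30865402-30880342, minus strand) over 601 bases, and without stated strand use the reads of the 2 cannot be told apart. The Cd22 window printed above lies inside the deposited span of the gene.

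Cd33 (ENSMUSG00000004609, chr7:43527456-43533171, minus strand) encodes a Siglec of myeloid cells. It had 31.0, 31.1, 25.2 and 25.9 CPM in KO libraries with TGF-β1, against 38.4, 20.3, 13.1 and 15.5 CPM in KO untreated libraries. The library labelled KO untreated replicate 1 was the highest of all 16, and the other 3 KO untreated libraries lay below every KO library with TGF-β1. In fl/fl macrophages it had 27.6, 20.9, 29.4 and 25.9 CPM with TGF-β1, against 16.4, 12.1, 25.0 and 18.4 CPM untreated. These groups overlapped, because untreated replicate 3 lay among the TGF-β1 values. The log2 fold change was 0.37 ± 0.27 in KO macrophages (edgeR adjusted p = 0.564) and 0.53 ± 0.27 in fl/fl macrophages (edgeR adjusted p = 0.225). Leaving out the library labelled KO untreated replicate 1, it was 0.83 ± 0.21 in KO macrophages (edgeR adjusted p = 0.00859) and 0.52 ± 0.19 in fl/fl macrophages (edgeR adjusted p = 0.0637). Every other fit run without that library also called Cd33 in KO macrophages: the replicate block, the KO libraries alone, both together, and DESeq2 (adjusted p 0.00118 to 0.0310). DESeq2 without that library called it in fl/fl macrophages too (adjusted p = 0.0337). Replicate number was also used as a block among the 8 fl/fl libraries alone. Deviations of same-numbered libraries correlated there at 0.123 to 0.181, and those of differently numbered ones reached 0.200. The fl/fl value was then 0.58 ± 0.13 (edgeR adjusted p = 0.0106), in a fit that called 19.8% of all genes.

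Siglec1 (ENSMUSG00000027322, chr2:131069220-131086765, minus strand) encodes sialoadhesin (CD169), a macrophage receptor that binds sialylated cells and viruses. It had 193, 231, 281 and 302 CPM in KO libraries with TGF-β1, against 212, 141, 216 and 227 CPM in KO untreated libraries. The library labelled KO untreated replicate 1 was above the TGF-β1 library of the same number, and the other 3 untreated libraries were below theirs. In fl/fl macrophages it had 270.4, 247, 309 and 329 CPM with TGF-β1, against 202, 216, 257 and 235 CPM untreated. Each numbered fl/fl TGF-β1 library was above the untreated library of the same number, although the 2 ranges overlapped. The log2 fold change was 0.34 ± 0.16 in KO macrophages (edgeR adjusted p = 0.278) and 0.34 ± 0.16 in fl/fl macrophages (edgeR adjusted p = 0.173). The threshold was missed in both, also without the library labelled KO untreated replicate 1 (edgeR adjusted p = 0.156 in KO and 0.166 in fl/fl macrophages). When the model held just the 8 fl/fl libraries, Siglec1 was called without a block (0.36 ± 0.11, edgeR adjusted p = 0.0495), as were 17.7% of all genes, and with the replicate block (0.36 ± 0.08, edgeR adjusted p = 0.0119), as were 19.8%. In KO macrophages without the library labelled replicate 1 it was called with the block, at 0.47 ± 0.12 over all groups (edgeR adjusted p = 0.0150) and at 0.52 ± 0.10 in the KO libraries alone (edgeR adjusted p = 0.0126). In the KO libraries alone without the block and without that library it was not (edgeR adjusted p = 0.252). Over all groups with the block and without that library, the fl/fl value was 0.33 ± 0.11 (edgeR adjusted p = 0.0483). These blocked values over all groups rest on joining the genotypes by number, for which no pairing was seen. Within a genotype, pairing by number is not established either.

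Siglece, Pilra, Lair1 and Sirpa were not called in either genotype in the model of all groups, with all libraries or without the library labelled KO untreated replicate 1. Siglece ranged from 1.86 to 3.32 CPM in KO libraries with TGF-β1, against 1.38 to 5.03 CPM untreated, and from 1.98 to 2.97 CPM in fl/fl libraries with TGF-β1, against 1.67 to 2.94 CPM untreated. Its log2 fold change was -0.13 ± 0.34 in KO macrophages (edgeR adjusted p = 0.928) and 0.10 ± 0.34 in fl/fl macrophages (edgeR adjusted p = 0.889). At 28 to 98 counts per library, a change of the size of these errors was not detectable.

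Pilra was at 0.687 to 2.69 CPM in KO libraries with TGF-β1, against 0.955 to 4.69 CPM untreated. It was at 0.261 to 2.35 CPM in fl/fl libraries with TGF-β1, against 1.92 to 4.91 CPM untreated. Its log2 fold change was -1.01 ± 0.55 in KO macrophages (edgeR adjusted p = 0.377), and its level in fl/fl macrophages was 2.01-fold lower with TGF-β1 (log2 SE 0.56, edgeR adjusted p = 0.265). These differences are as large as those of Pirb but rest on 5 to 106 counts per library. Without the library labelled KO untreated replicate 1, Pilra was at -1.29 ± 0.51 in KO macrophages (edgeR adjusted p = 0.113). It was called in 1 of the fits run without the library labelled KO untreated replicate 1, that of the KO libraries alone with the replicate block (-1.71 ± 0.40, edgeR adjusted p = 0.0279). It was not called there with the block over all groups (edgeR adjusted p = 0.0661), in the KO libraries alone with no block (0.0563) or by DESeq2 (0.0649). Its deposited span overlaps the opposite-strand gene Zcwpw1 over 670 bases.

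Lair1 ranged from 54.8 to 75.3 CPM in KO libraries with TGF-β1, against 36.0 to 82.6 CPM untreated. In fl/fl libraries it ranged from 45.6 to 75.6 CPM with TGF-β1, against 78.6 to 85.0 CPM untreated. The fl/fl groups did not overlap, and the log2 fold change of -0.28 ± 0.22 there did not pass the threshold (edgeR adjusted p = 0.456). Its lowest value with TGF-β1 was in fl/fl replicate 4, the library that was also lowest in that group for Lilrb4a, Pilra, Siglece and Cd200r1, and highest for Siglec1, Cd22, Sirpa, Pirb and Smad7. Sirpa, with at least 32742 counts in each library, had log2 fold changes of -0.02 ± 0.14 in KO macrophages (edgeR adjusted p = 0.980) and -0.12 ± 0.14 in fl/fl macrophages (edgeR adjusted p = 0.648).

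**Figure D4:**
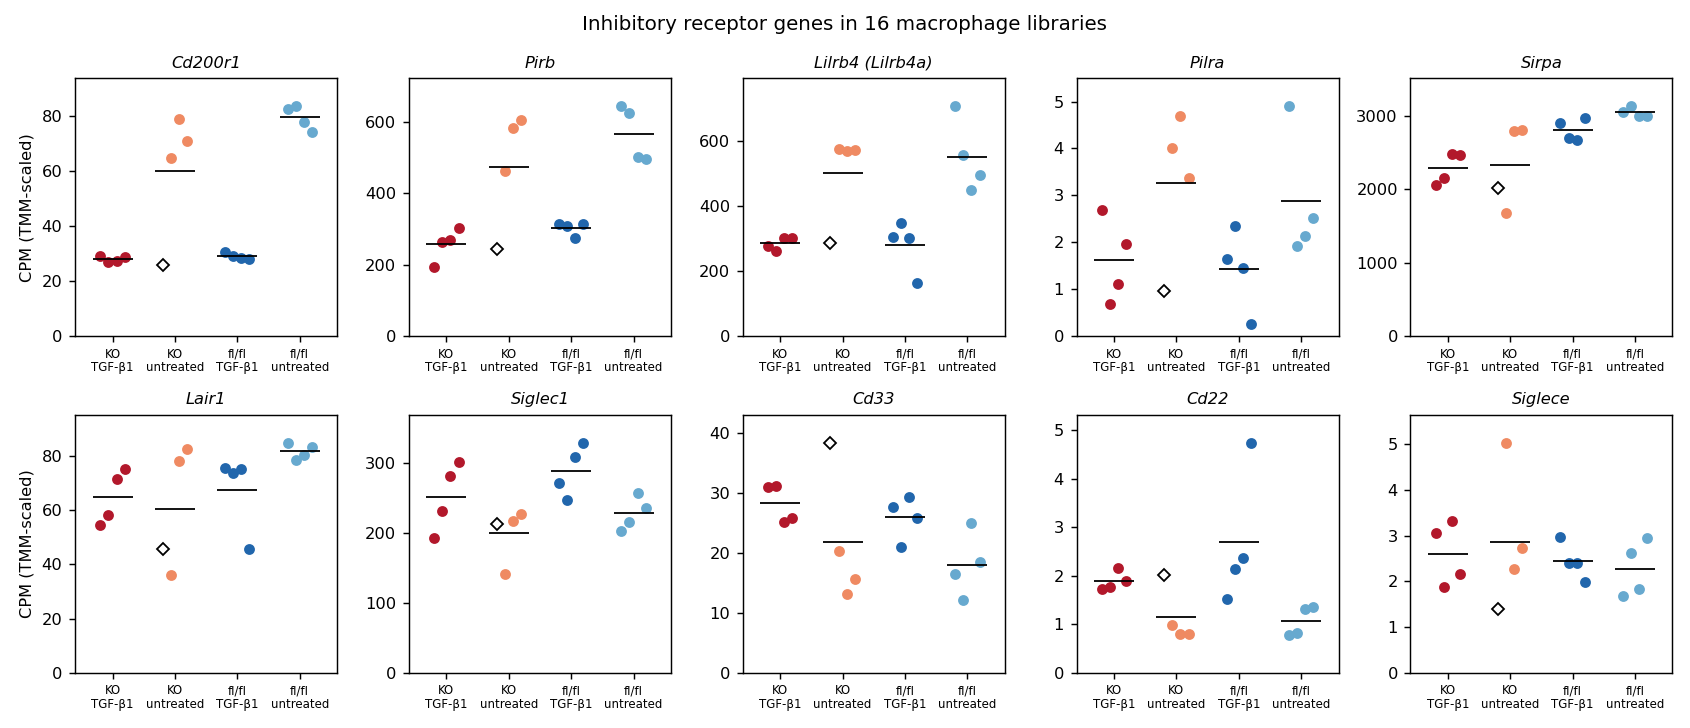
CPM of each of the 10 genes in the 4 groups, with 1 point per library and bars at the group means. The open diamond is the library labelled KO untreated replicate 1. It lies within the range of the KO libraries with TGF-β1 for Pirb, Lilrb4a, Cd22, Siglec1 and Pilra. For Cd200r1, Sirpa, Lair1 and Siglece it lies below that range, and for Cd33 above it.

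Between genotypes no gene of the 10 was called higher or lower, with TGF-β1 or untreated. Over all genes, 0.0382% were called between KO and fl/fl macrophages with TGF-β1 and 0.0459% between untreated KO and fl/fl macrophages. Without the library labelled KO untreated replicate 1 they were 0.06% with TGF-β1 and 0.0975% untreated, and again no member was called. DESeq2's Wald test also called none of the 10. At an unadjusted p under 0.05, edgeR's test held 1 member in each of the 2 comparisons, Sirpa both times. Over all genes 5.61% were under that value with TGF-β1 and 10.9% untreated, so 1 of 10 is near the share of all genes.

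Sirpa (ENSMUSG00000037902, chr2:129592835-129632228, plus strand) had 2053, 2148, 2483 and 2473 CPM in KO libraries with TGF-β1, against 2896, 2704, 2674 and 2977 CPM in fl/fl libraries with TGF-β1. Untreated, it had 2012, 1682, 2795 and 2807 CPM in KO libraries, against 3056, 3134, 2996 and 3003 CPM in fl/fl libraries. In both treatments every KO library was below every fl/fl library. The KO over fl/fl log2 fold change was -0.30 ± 0.14 with TGF-β1 (edgeR adjusted p = 0.877) and -0.39 ± 0.14 untreated (edgeR adjusted p = 0.414). Neither passed the threshold. Untreated and without the library labelled replicate 1, it was -0.35 ± 0.15 (edgeR adjusted p = 0.393). The KO untreated values were uneven, with replicates 1 and 2 lower than replicates 3 and 4, and Lair1 had the same order at 45.7, 36.0, 78.3 and 82.6 CPM in those libraries, against 85.0, 78.6, 80.6 and 83.6 CPM in the fl/fl untreated libraries.

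**Figure D5:**
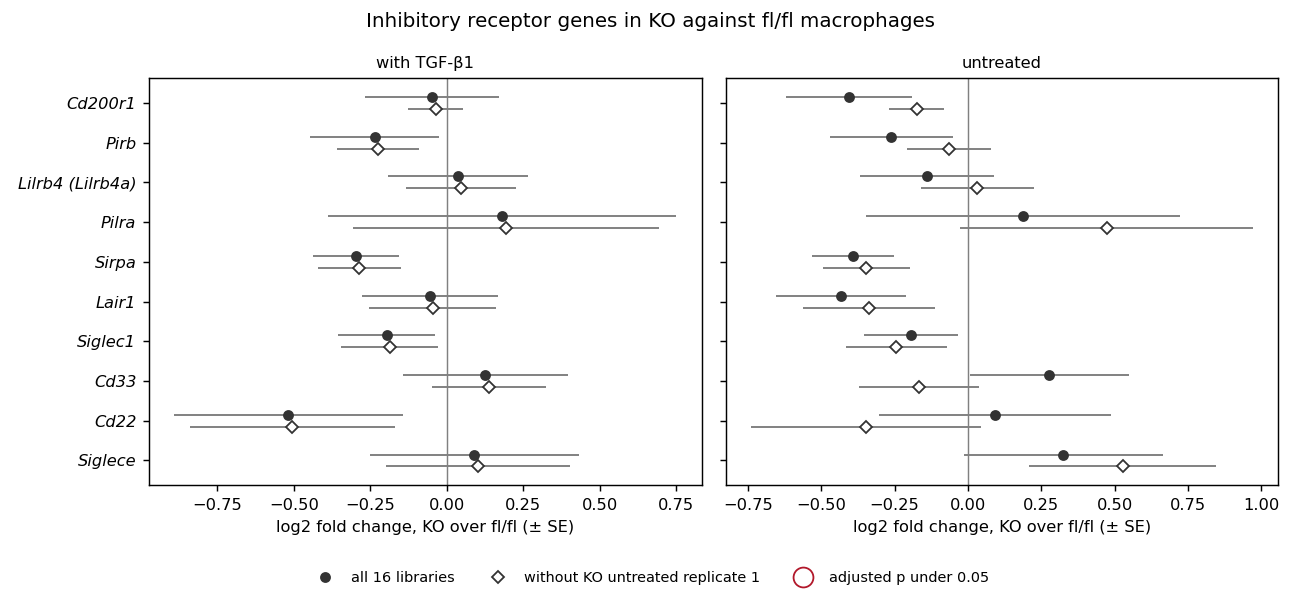
Log2 fold change of each gene in KO over fl/fl macrophages (± SE), with TGF-β1 on the left and untreated on the right, with all 16 libraries (filled circles) and without the library labelled KO untreated replicate 1 (open diamonds). No gene has an adjusted p under 0.05, and Sirpa lies at -0.30 with TGF-β1 and -0.39 untreated.

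The difference between the TGF-β1 responses, KO minus fl/fl, was tested as an interaction. None of the 10 genes was called, and none had an unadjusted p under 0.05. Over all genes 0% were called by edgeR with or without the library labelled KO untreated replicate 1, and 275 of 13080 (2.1%) had an unadjusted p under 0.05, while DESeq2 called 1 gene and none of the 10. For Cd200r1 the difference was 0.36 ± 0.31 on the log2 scale with all libraries and 0.14 ± 0.13 without that library. For Pirb it was 0.02 ± 0.30 and -0.16 ± 0.20, for Lilrb4a 0.18 ± 0.32 and 0.01 ± 0.26, and for Cd22 -0.61 ± 0.54 and -0.16 ± 0.52 in the same 2 settings. Differences within these errors were not detectable, so a call in 1 genotype only is not shown to be a difference between genotypes.

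Of 13 genes tested on a list of other inhibitory receptors of myeloid cells, 1 rose and 2 fell with TGF-β1 in KO macrophages. There 2.19% of all genes were called higher and 2.97% lower. The list also holds Cd300ld, which is of the activating type. For fl/fl macrophages the counts were 4 higher and 5 lower, where 7.87% of all genes were called higher and 7.61% lower. Leaving out the library labelled KO untreated replicate 1, 3 rose and 4 fell in KO macrophages (background 8.17% higher and 6.7% lower over all genes), and 5 rose and 6 fell in fl/fl macrophages (background 8.71% and 9.02%). Cd300lf, an ITIM receptor for lipids, averaged 43.2 ± 5.92 CPM in fl/fl macrophages with TGF-β1, against 2.51 ± 0.653 CPM untreated, a log2 fold change of 4.12 ± 0.86 (edgeR adjusted p = 0.00479). Havcr2, which encodes the checkpoint receptor TIM-3, averaged 84.7 ± 16.4 CPM in fl/fl macrophages with TGF-β1, against 24.2 ± 4.82 CPM untreated (edgeR adjusted p = 0.00866). Both also rose in KO macrophages without the library labelled untreated replicate 1. There Cd300lf rose by 3.88 ± 0.23 (edgeR adjusted p = 1.24e-09) and Havcr2 by 2.12 ± 0.20 (edgeR adjusted p = 3.07e-07). Clec4a2, an ITIM-bearing C-type lectin, fell on the log2 scale by 1.31 ± 0.24 in KO macrophages (edgeR adjusted p = 0.00945) and by 1.63 ± 0.24 in fl/fl macrophages (edgeR adjusted p = 0.000722). Cd300a, which binds phospholipids of dying cells, fell by 0.55 ± 0.11 in KO macrophages (edgeR adjusted p = 0.0157) and by 0.64 ± 0.11 in fl/fl macrophages (edgeR adjusted p = 0.00145). Cd244 was the receptor that rose in KO macrophages with all libraries, by 0.96 ± 0.26 (edgeR adjusted p = 0.0426).

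Of the other 5 Siglec genes, 2 were tested and neither was called. Siglech, a Siglec of plasmacytoid dendritic cells, had a mean of 0.925 CPM in fl/fl macrophages with TGF-β1 and 0.186 CPM untreated (edgeR adjusted p = 0.0597). Of 16 activating counterparts and their ITAM adaptors, none rose and 2 fell in KO macrophages (background 2.19% and 2.97%), and 1 rose and 3 fell in fl/fl macrophages (background 7.87% and 7.61%). Trem1, an amplifier of inflammatory signals, rose in fl/fl macrophages by 2.81 ± 0.52 (edgeR adjusted p = 0.00184). Its level there was low, at a mean of 0.849 CPM untreated, from 8 to 21 counts per library, and 5.83 CPM with TGF-β1. Cd300lb fell in fl/fl macrophages by 0.87 ± 0.12 (edgeR adjusted p = 0.000615). Cd300lb also fell in KO macrophages, by 0.65 ± 0.12 (edgeR adjusted p = 0.0103). Trem1 rose there by 1.85 ± 0.38 (edgeR adjusted p = 0.00193) without the library labelled KO untreated replicate 1. Once the library labelled KO untreated replicate 1 was left out, this list had 1 higher and 4 lower in KO macrophages (background 8.17% and 6.7%), and 1 higher and 5 lower in fl/fl macrophages (background 8.71% and 9.02%).

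Among 18 kinases, phosphatases and adaptors that act at the inhibitory motif, none rose and 1 fell in KO macrophages, near the 2.19% and 2.97% of all genes. The fl/fl counts were 4 higher and 2 lower, against 7.87% and 7.61% of all genes. Inpp5d, which encodes SHIP1, averaged 1224 ± 61.8 CPM in fl/fl macrophages with TGF-β1, against 529 ± 27.5 CPM untreated. Its log2 fold change there was 1.21 ± 0.24 (edgeR adjusted p = 0.00290). In KO macrophages without the library labelled untreated replicate 1 it was 1.30 ± 0.13 (edgeR adjusted p = 8.79e-07). Dok3, an adaptor that restrains immunoreceptor signalling, rose by 0.94 ± 0.19 in fl/fl macrophages (edgeR adjusted p = 0.00285). Lyn, a Src-family kinase that phosphorylates the motif, fell by 0.55 ± 0.13 (edgeR adjusted p = 0.00654), and the ubiquitin ligase Cblb fell by 0.56 ± 0.10 (edgeR adjusted p = 0.00131). Dok2, the adaptor used by CD200R1, fell in KO macrophages by 1.76 ± 0.45 (edgeR adjusted p = 0.0374). In fl/fl macrophages its log2 fold change was -1.29 ± 0.44 (edgeR adjusted p = 0.0614). Rasa1, through which CD200R1 also signals, rose in KO macrophages without the library labelled untreated replicate 1, by 0.52 ± 0.15 (edgeR adjusted p = 0.0184). In fl/fl macrophages Rasa1 averaged 108 ± 24.4 CPM with TGF-β1 and 98.0 ± 2.41 CPM untreated. Without the library labelled KO untreated replicate 1, 4 of this list rose and 5 fell in each genotype, against 8.17% and 6.7% of all genes in KO and 8.71% and 9.02% in fl/fl macrophages. Ptpn6, which encodes SHP-1, was then at -0.47 ± 0.11 in KO macrophages (edgeR adjusted p = 0.00458) and -0.34 ± 0.10 in fl/fl macrophages (edgeR adjusted p = 0.0233).

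Of 18 ligands of these receptors tested, none rose or fell in KO macrophages, and 2 rose and 1 fell in fl/fl macrophages. Both counts are near the shares of all genes, 2.19% higher and 2.97% lower in KO and 7.87% higher and 7.61% lower in fl/fl macrophages. Angptl2, an angiopoietin-like ligand of PirB, averaged 562 ± 57.7 CPM in fl/fl macrophages with TGF-β1, against 119.8 ± 7.80 CPM untreated (log2 fold change 2.23 ± 0.45, edgeR adjusted p = 0.00372). Pianp, the neural ligand of PILRα, rose by 1.10 ± 0.29 in fl/fl macrophages (edgeR adjusted p = 0.0153) at a mean of 4.61 CPM with TGF-β1 and 2.16 CPM untreated. Cd47, the ligand of SIRPα, fell by 0.63 ± 0.13 in fl/fl macrophages (edgeR adjusted p = 0.00320). In KO macrophages without the library labelled untreated replicate 1, Angptl2 rose by 2.40 ± 0.13 (edgeR adjusted p = 2.53e-10). Cd47 fell there by 0.48 ± 0.12 (edgeR adjusted p = 0.00980). Of the 19 tested without the library labelled KO untreated replicate 1, 2 rose and 1 fell in each genotype, again near the shares of all genes (8.17% and 6.7% in KO, 8.71% and 9.02% in fl/fl macrophages).

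Siglecs bind sialylated glycans, and 21 genes of sialic acid synthesis and transfer were tested. In KO macrophages 2 rose and 3 fell with TGF-β1, against 2.19% and 2.97% of all genes. The fl/fl macrophages had 2 that rose, near the 7.87% of all genes, and 5 fell, against 7.61%. Cmas, which activates sialic acid, rose by 0.46 ± 0.12 in KO macrophages (edgeR adjusted p = 0.0350) and by 0.63 ± 0.12 in fl/fl macrophages (edgeR adjusted p = 0.00198). Slc35a1, the Golgi transporter of activated sialic acid, rose by 0.37 ± 0.12 in fl/fl macrophages (edgeR adjusted p = 0.0365). St6gal1, which makes the sialic acid linkage that CD22 binds, fell by 0.92 ± 0.17 in KO macrophages (edgeR adjusted p = 0.00927). It averaged 108 ± 8.66 CPM in fl/fl macrophages with TGF-β1, against 219 ± 14.0 CPM untreated, and fell there by 1.02 ± 0.17 (edgeR adjusted p = 0.00103). St3gal1, another sialyltransferase, fell by 0.77 ± 0.18 in KO macrophages (edgeR adjusted p = 0.0229) and by 1.05 ± 0.18 in fl/fl macrophages (edgeR adjusted p = 0.00109). St8sia4 fell in KO macrophages by 1.44 ± 0.32 (edgeR adjusted p = 0.0226). In fl/fl macrophages St8sia4 averaged 61.4 ± 20.1 CPM with TGF-β1, against 245 ± 29.8 CPM untreated. St3gal5 rose in KO macrophages by 0.47 ± 0.11 (edgeR adjusted p = 0.0292). The counts without the library labelled KO untreated replicate 1 were 2 higher and 4 lower in KO macrophages (background 8.17% and 6.7%) and 2 higher and 5 lower in fl/fl macrophages (background 8.71% and 9.02%).

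Siglec1 is known as an interferon-responsive gene, and 20 type I interferon-stimulated genes were tested beside it. None rose, and 5 fell in KO macrophages (background 2.97%) and 7 in fl/fl macrophages (background 7.61%), with medians on the log2 scale of -0.79 in KO and -0.94 in fl/fl macrophages. In each genotype 16 of the 20 fell once the library labelled KO untreated replicate 1 was left out, when 6.7% of all genes were called lower in KO and 9.02% in fl/fl macrophages. Mx1, an antiviral GTPase, averaged 23.0 ± 8.19 CPM in fl/fl macrophages with TGF-β1, against 113.8 ± 40.5 CPM untreated (edgeR adjusted p = 0.00878). In KO macrophages Mx1 fell by 2.30 ± 0.53 on the log2 scale (edgeR adjusted p = 0.0272). The log2 fold change of Siglec1, 0.34 in both genotypes, had the other sign.

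The genes whose pattern was most like that of a called member were ranked by the root mean square difference of centred log2 CPM, over 15 libraries without the one labelled KO untreated replicate 1 and 11344 named genes. Nearest to Cd200r1 were Maf (0.145) and Nfxl1 (0.149). Nearest to Pirb were Abcc5 (0.0930) and Ipo13 (0.121), and nearest to Lilrb4a were Ccdc50 (0.124) and Acvr2a (0.139). For the 2 genes that were higher, the nearest were Rhod (0.246) and Adarb1 (0.280) for Cd22, and Lmnb1 (0.222) and Cdkn2aipnl (0.224) for Cd33. Among the 10 genes themselves, Lair1 and Sirpa were the closest pair (0.234), followed by Siglec1 and Sirpa (0.266), Cd200r1 and Pirb (0.270) and Lilrb4a and Pirb (0.311). These are descriptions over libraries that share the TGF-β1 contrast.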

How the data were processed

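RNA was measured in 16 libraries of cultured macrophages, 4 in each of 4 groups, from poly(A)-selected RNA read as 150 bp pairs per the labels' protocols. The labels list 16 libraries, whereas the protocol text in them speaks of 8. The submitters' processing notes name HTSeq 0.6.1, Cufflinks 2.1.1 and TopHat2 2.0.9, and the builds mm10 and GRCm38.p6. The deposited counts are raw whole-number read counts per gene, made by the authors, and the deposited FPKM values are the authors' scaling of those counts to gene length and library total: 100% of them matched that ratio within 0.1%. Strand use and the handling of reads with several matches are not given in the sources used here.

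Starting from the counts, totals of 16865591 to 23741079 were scaled by TMM, and filterByExpr on the 4 groups kept 13080 of 35275 genes (edgeR 4.0.16, R 4.3.3). CPM are relative to the TMM-scaled total. All 16 libraries entered 1 quasi-likelihood model with a mean per group and robust estimation. P-values were adjusted over all genes tested by the Benjamini-Hochberg method at 0.05, and SE is the log2 fold change over the root of F. DESeq2 1.42.0 was an alternative. Reads carry no molecular identifiers, so depth speaks for counting error only. Only the edgeR model of all 16 libraries was tested on simulated counts, with changes planted in the fl/fl TGF-β1 group. DESeq2, the replicate block and the fits of fewer libraries were not.

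Members and gene lists were chosen with earlier results of these data known. The named genes are the 10 members, Smad7, Pmepa1 and Skil as checks, up to 2 rising and 2 falling genes of each list by p, and the 2 genes nearest each called member. Gp49a and Pira2 fall outside this rule and were added after their values were seen. Older symbols were matched through RefSeq synonyms.

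Same-numbered libraries were compared by the correlation of their deviations from group means. All 4 pairs of TGF-β1 and untreated fl/fl libraries were above 0.1 (0.123 to 0.181). Their numbers were used as a block, although this cut cannot show pairing, for the reason given below. In KO macrophages 2 of 4 pairs were, and all 3 were (0.127 to 0.224) without the library labelled KO untreated replicate 1. Across genotypes none was, so the block over all groups joined libraries that were not shown to be pairs. Differently numbered libraries ran from -0.216 to 0.200 in fl/fl macrophages. They ran from -0.224 to 0.204 in KO macrophages without the library labelled untreated replicate 1. These ranges reach the values of the same-numbered pairs, so pairing by number is not established. Blocked values stand beside the member results whose call they change.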

Additional observations from a re-analysis of the deposited data

Results flagged for a closer look

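In 40 sets of 4 libraries (10 genes in 4 groups), the gap between the most extreme library and its neighbour was set against the range of the set, by Dixon's 95% critical value for 4 libraries. This flagged 3 values, and chance flags about 1 in 20 sets. Lilrb4a was at 285.7 CPM in the library labelled KO untreated replicate 1, the lowest of its group, with a gap of 0.988 of the range to the other 3, at 570.1 to 573.7 CPM. Cd22 was at 2.01 CPM in that same library, the highest of its group, with a gap of 0.846 of the range to the other 3, at 0.788 to 0.976 CPM. Lair1 was at 45.6 CPM in fl/fl TGF-β1 replicate 4, the lowest of its group, with a gap of 0.937 of the range to the other 3, at 73.7 to 75.6 CPM. No explanation was tested.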

How the results depend on the processing

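The number of members called did not move by more than 1.5 times under any alternative run for the TGF-β1 response of fl/fl macrophages (3 to 4 calls when 1 library was left out), and stayed at 0 for both genotype comparisons and for the difference between responses. For the TGF-β1 response of KO macrophages, with 2 calls, it did. It was 0 in a fit of the KO libraries alone, with or without the replicate block. Without the library labelled KO untreated replicate 1 it was 5 in a fit of the KO libraries alone, 6 with the replicate block as well, 6 with the replicate block in the fit of all other libraries, and 5 by DESeq2. Leaving out 1 library at a time gave 0 to 4 calls: it was 4, 1, 0 and 0 on leaving out KO untreated replicate 1, 2, 3 or 4, and 1, 1, 0 and 1 on leaving out KO TGF-β1 replicate 1, 2, 3 or 4. DESeq2 with all libraries called 3, adding Lilrb4a (adjusted p = 0.0136). Over all genes, 676 were called in this comparison, against 446 without a filter on low counts, 1093 by DESeq2, 0 in the KO libraries alone and 1984 without the library labelled KO untreated replicate 1. Between genotypes 5 were called with TGF-β1 and 6 untreated, against 24 and 61 by DESeq2 in the same 2 comparisons.

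Small changes turned sign in KO macrophages. Sirpa was at -0.02 on the log2 scale, against 0.0167 with the replicate block in the KO libraries alone, 0.0160 with that block and without the library labelled replicate 1, and -0.14 to 0.10 over the fits that left out 1 library. Over those fits Siglece ran from -0.33 to 0.30 and Lair1 from -0.0725 to 0.30. The cause was not tested.

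Of the other log2 fold changes, 496 planned and 50 added repeats kept direction and side of the threshold. The replicate block in the fit of all 16 libraries changed no call among the 10 genes. DESeq2's size factors moved no group mean by more than its SD, and the median of all genes by less than 0.1. The added alternatives, those that join leaving out the library labelled KO untreated replicate 1 with another choice and the blocked fits of 1 genotype, were chosen after seeing the data. Depth limits Cd22, Siglece and Pilra, with 5 to 106 counts per library.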
